A study of Mus musculus with 6 samples.

Results

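Hypoxia sensing and the targets of the hypoxia-inducible factors (HIF) were examined in injured mouse hearts through 10 genes of the deposited table, taken by gene name. The 10 were 3 HIF alpha subunits (Hif1a, Epas1 and Hif3a), 3 prolyl hydroxylases (Egln1, Egln2 and Egln3) and 4 HIF targets (Vegfa, Bnip3, Adm and Ndrg1). Each name matched 1 of the 55359 genes in the table, and all 10 were among the 20489 genes with enough counts to be tested. C57BL/6 mice had been given AAV9, an adeno-associated virus that reaches the heart, by tail vein, carrying an shRNA against YTHDF2 or a negative control (NC). The vector design names GFP and a cTNT promoter, active in cardiomyocytes, and the labels do not say whether that promoter also drives the shRNA. After 4 weeks both groups had cardiac ischemia/reperfusion (I/R) surgery, an occlusion of blood flow followed by its return, with the flow stopped for 45 min and restored for 24 h. Heart RNA was sequenced in 3 control libraries, named shNC 1 to 3 here. The other 3 libraries, whose labels give the YTHDF2 shRNA, are named shYthdf2 1 to 3. The sample titles say heart and name no part of it. Age and sex are not stated in the labels, nor is it stated that each library is a separate animal, so the spread within a group may be technical in part. Every heart was injured, so the values compare the vectors and not injured with uninjured tissue.

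HIF is a pair of an oxygen-regulated alpha subunit and a constant partner, ARNT. In the presence of oxygen the EGLN prolyl hydroxylases (also called PHD enzymes) hydroxylate the alpha subunit, the VHL ubiquitin ligase binds it and it is degraded. In hypoxia it persists, enters the nucleus and binds a short core in hypoxia response elements, which raises genes of blood vessel growth, glycolysis, mitophagy and vessel tone. Because this switch acts on the protein, transcript levels of the alpha subunits do not measure HIF activity. In the heart EPAS1 (HIF-2 alpha) is known mainly from endothelial cells, while EGLN1 (PHD2) is the main oxygen sensor of most cells and EGLN3 (PHD3) is itself induced by HIF.

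The promoters below are those of the 3 members with the smallest p in the comparison of the groups (Egln3, Adm and Hif1a) and of the member with the widest range over the libraries (Bnip3). They are the 250 bases upstream of the RefSeq start site, from the RefSeq table on GRCm38.p6, written on the strand of the gene. Capitals mark the HIF core on either strand: ACGTG, read as CACGT when on the other strand, and its second form GCGTG, read there as CACGC. The palindrome CACGTG holds the first form on both strands, is also an E-box, and was counted once.
Egln3 (chr12:54203875-54204124, minus strand): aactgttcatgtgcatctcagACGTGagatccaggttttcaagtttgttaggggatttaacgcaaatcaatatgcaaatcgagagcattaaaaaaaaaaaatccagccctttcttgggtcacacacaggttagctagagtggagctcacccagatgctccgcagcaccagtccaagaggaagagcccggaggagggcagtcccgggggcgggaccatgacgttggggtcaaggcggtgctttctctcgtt
Adm (chr7:110627407-110627656, plus strand): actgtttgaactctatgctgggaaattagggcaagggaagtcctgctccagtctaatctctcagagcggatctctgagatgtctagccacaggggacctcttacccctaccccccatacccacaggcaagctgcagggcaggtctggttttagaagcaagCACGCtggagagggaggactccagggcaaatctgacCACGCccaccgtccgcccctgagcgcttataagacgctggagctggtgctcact
Hif1a (chr12:73907617-73907866, plus strand): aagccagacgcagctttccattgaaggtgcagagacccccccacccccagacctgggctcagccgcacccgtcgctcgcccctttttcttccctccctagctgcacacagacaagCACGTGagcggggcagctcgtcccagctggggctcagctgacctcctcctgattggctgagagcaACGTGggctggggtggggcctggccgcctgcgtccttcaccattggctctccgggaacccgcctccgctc
Bnip3 (chr7:138909507-138909756, minus strand): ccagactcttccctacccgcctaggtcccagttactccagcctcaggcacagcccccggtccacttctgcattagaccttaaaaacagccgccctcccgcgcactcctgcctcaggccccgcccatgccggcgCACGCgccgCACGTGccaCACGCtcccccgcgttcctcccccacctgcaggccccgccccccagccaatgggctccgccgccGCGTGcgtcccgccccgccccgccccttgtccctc
The only core in the Egln3 window began 229 bases upstream of the start. The Adm window held 2 cores of the CACGC form, at 90 and 54 bases. The Hif1a window held 2, at 135 and 70 bases, the first within CACGTG. The Bnip3 window held 4, at 117, 108, 99 and 35 bases, of which the second lay in CACGTG. The table matched 8 of the 10 genes with 10 windows in all, because Egln2 and Vegfa each have 2. A core was present in 9 of these 10 windows, and in 38.6% of the 32851 windows of the same length over all genes. The window with 0 cores was that of the Vegfa start further upstream. The 2 cores counted for Vegfa lay in the window of its downstream start. Egln2 likewise adds a window at a downstream start, with 1 core. Both downstream windows lie past the further upstream start of the same gene, so their letters are inside the gene and not ahead of it. They are part of the 9 of 10. That share and the 38.6% were not tested against each other. A match is a description of the letters and not a bound site.

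The libraries held between 67023813 and 77561552 counts, so the least abundant member, Hif3a, still had 161 counts or more in each. Cardiomyocyte markers were found in every library, 12 of 12 above 0. The shYthdf2 libraries did not have less Ythdf2 than the controls (25.1 to 32.7 counts-per-million, CPM, against 20.7 to 27.0 CPM; log2 fold change 0.21 ± 0.20 SE, adjusted p = 0.976 in edgeR's quasi-likelihood test), and shYthdf2 is used here as a label only. The root-mean-square log2 difference over tested genes was smallest between shYthdf2 1 and 2 (0.870) and largest between shNC 2 and 3 (1.41) and shNC 1 and 3 (1.36), so shNC 3 stood apart from the other controls.

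None of the 10 genes passed edgeR's test between the groups at an adjusted p under 0.05, nor DESeq2's or limma's, where in edgeR 0.00976% of the tested genes did. At an unadjusted p under 0.05 there were 2, Egln3 and Adm, both higher in shYthdf2, beside 3.65% of all tested genes in either direction and 1.88% in the higher direction. The groups did not overlap in CPM for 2 of the 10, Egln3 and Hif1a, both higher in shYthdf2, and for 9.51% of tested genes (4.95% higher). In FPKM the groups were apart for 1 of the 10, Egln3, and for 9.08% of tested genes. Without shNC 3, 4 of the 10 had an unadjusted p under 0.05, beside 19.6% of all genes in that fit. The median log2 fold change of the 10 was -0.088, with 4 above and 6 below 0. Over all tested genes it was -0.013, with 9967 above and 10522 below 0. In shNC 3, 7 of the 10 genes had their lowest level of the 6 libraries, as did 23.3% of all tested genes.

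**Figure D1:**
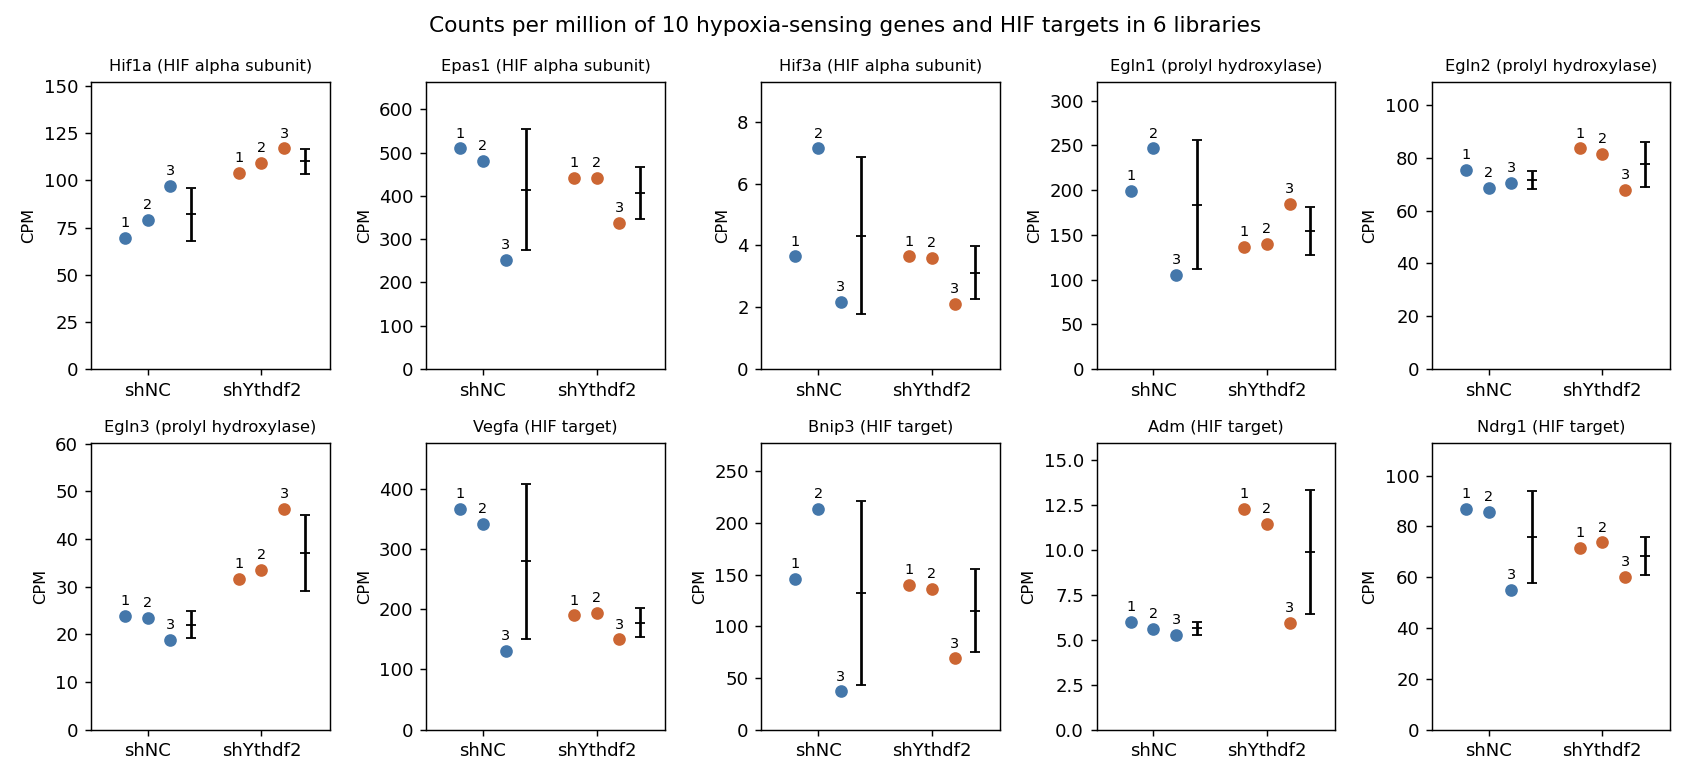
CPM (y axis, from 0) of each gene in the 3 shNC and 3 shYthdf2 libraries; points are libraries with their replicate number, and the black mark is the mean with the SD. Hif1a and Egln3 are the 2 genes whose groups do not overlap, and shNC 3 is the lowest point for 7 genes.

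**Figure D2:**
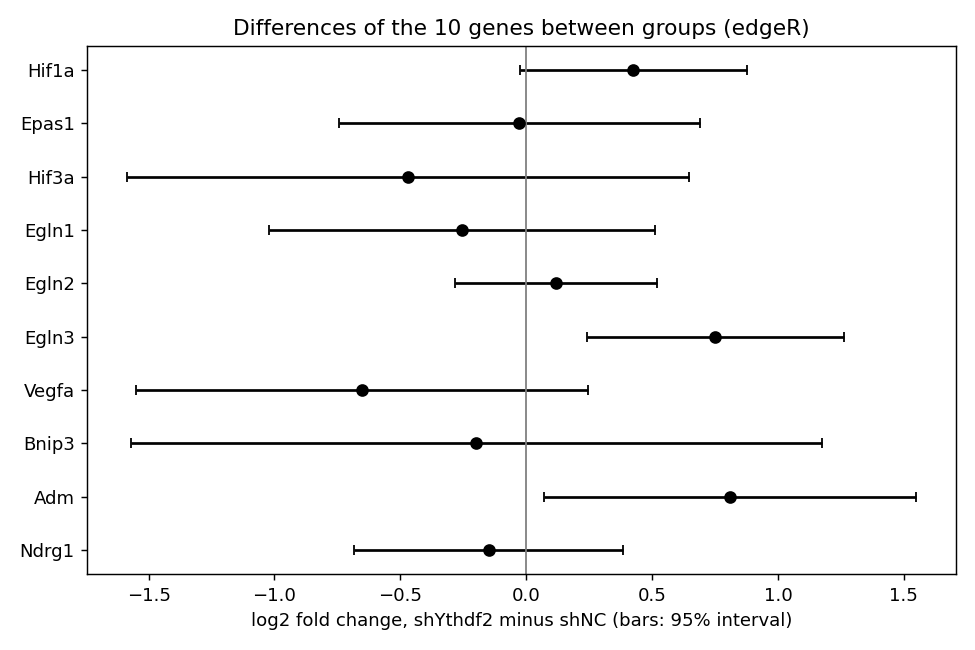
Log2 fold change of each gene, shYthdf2 minus shNC (x axis), with its 95% interval from edgeR's quasi-likelihood fit of 6 libraries. The intervals of Egln3 (0.24 to 1.26) and Adm (0.071 to 1.55) lie above 0, before adjustment over the tested genes, and the others include 0.

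Of the alpha subunits, Hif1a lay higher in CPM in every shYthdf2 library, and Epas1 and Hif3a showed no separation by label. Hif1a (ENSMUSG00000021109, chromosome 12, 73948149 to 73994304, plus strand; coordinates as in the deposited table, whose build is not named) encodes the subunit found in nearly all cells. It stood at 69.4, 79.2 and 97.3 CPM in shNC 1, 2 and 3, and at 104, 109 and 117 CPM in shYthdf2 1, 2 and 3. All 3 shYthdf2 libraries lay above all 3 controls, but shNC 3 was only a little below shYthdf2 1. The control mean was 82.0 ± 14.2 CPM (SD, n = 3) and the shYthdf2 mean 110 ± 6.56 CPM (SD, n = 3), a 1.34-fold difference with a 95% interval from 0.982 to 1.84 (log2 fold change 0.43 ± 0.19 SE, adjusted p = 0.976 in edgeR). An exact permutation test (two-sided) gave p = 0.1, the smallest possible with 3 against 3 libraries. Without shNC 3 the log2 fold change was 0.57 (unadjusted p = 0.00665, adjusted p = 0.104 in edgeR). In that fit 19.6% of all genes had an unadjusted p under 0.05. With any other library left out the unadjusted p of Hif1a lay between 0.104 and 0.176 in edgeR. On the authors' FPKM shNC 3 (16.7) lay above shYthdf2 1 (16.1), so there the groups overlapped (exact permutation p = 0.2). CPM use a TMM-scaled library size, with a factor of 1.13 in shNC 3 and 1.02 in shYthdf2 1. With library totals only, the log2 fold change was 0.41 (unadjusted p = 0.124 in edgeR, against 0.0612 with TMM). The separation of the groups in Hif1a was thus seen in TMM-scaled CPM and not in FPKM.

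Epas1 (ENSMUSG00000024140, chromosome 17, 87061128 to 87140838, plus strand) stood at 510, 481 and 253 CPM in the controls and at 441, 442 and 337 CPM in shYthdf2. It was low in the third library of each group and the groups overlapped. The log2 fold change was -0.027 ± 0.31 (SE; adjusted p = 0.997 in edgeR), with a 95% interval for the fold from 0.598 to 1.61, and it turned to 0.15 without shNC 1, 0.096 without shNC 2 and 0.094 without shYthdf2 3. Without shNC 3 it was -0.28. The summed level of 12 endothelial markers (Pecam1, Cdh5, Vwf and others, Epas1 not among them and none at 0) followed the same libraries, at 4496, 4480 and 2278 CPM in the controls and at 3833, 3887 and 2946 CPM in shYthdf2. Epas1 took 113, 107 and 111 CPM per 1000 CPM of these markers in shNC and 115, 114 and 114 in shYthdf2. The range over libraries was thus 2.02-fold for Epas1 and 1.07-fold for Epas1 relative to endothelial markers, a ratio that was chosen after the values were seen. In RNA of heart tissue, fewer cells of a type and less RNA per cell cannot be told apart.

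**Figure D3:**
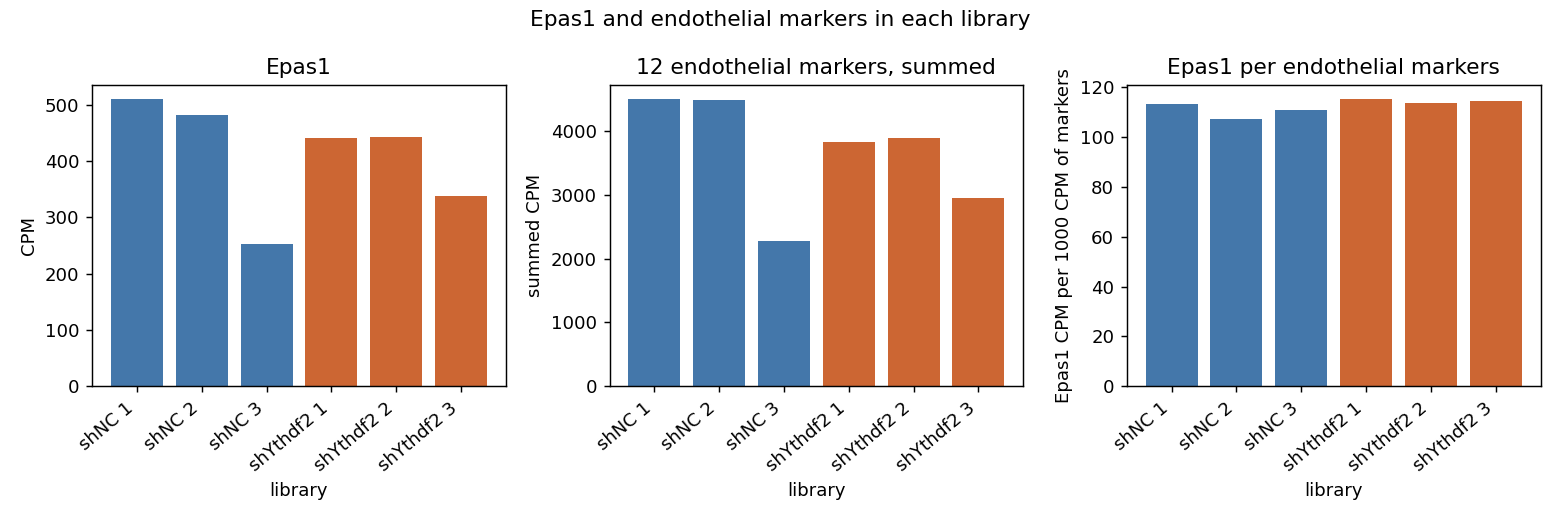
Epas1 CPM (left), summed CPM of 12 endothelial markers (middle) and Epas1 CPM per 1000 CPM of those markers (right) in each library, all axes from 0, shNC in blue and shYthdf2 in orange. The first 2 panels dip in shNC 3 and shYthdf2 3, and the ratio stays between 107 and 115.

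Hif3a (ENSMUSG00000004328, chromosome 7, 16765432 to 16796352, minus strand), whose splice forms include inhibitors of the other alpha subunits, was the least abundant of the 10 genes. It stood at 3.65, 7.14 and 2.17 CPM in the controls and at 3.64, 3.59 and 2.12 CPM in shYthdf2. Its high value lay in shNC 2 alone, and the log2 fold change of -0.47 ± 0.48 (SE; adjusted p = 0.976 in edgeR) turned to 0.10 without that library. Per length, Epas1 was the leading alpha transcript in every library. Of the summed FPKM of the 3 subunits it took 88.1%, 85.6% and 72.9% in shNC and 81.3%, 80.6% and 75.0% in shYthdf2. Hif1a took 11.4%, 13.3% and 26.6% in shNC and 18.1%, 18.9% and 24.6% in shYthdf2, and Hif3a 1.05% at most. The share of Hif1a was highest in a control, shNC 3, and next in shYthdf2 3, the libraries low in Epas1.

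Among the hydroxylases Egln3 differed most between the groups, while Egln1 and Egln2 overlapped. Egln3 (ENSMUSG00000035105, chromosome 12, 54225767 to 54250646, minus strand), the hydroxylase whose promoter is shown first above, stood at 23.9, 23.4 and 18.8 CPM in the controls and at 31.6, 33.4 and 46.3 CPM in shYthdf2. All 3 shYthdf2 libraries lay above all 3 controls, in CPM and in FPKM, with shYthdf2 3 the highest. The control mean was 22.0 ± 2.84 CPM (SD, n = 3) and the shYthdf2 mean 37.1 ± 7.99 CPM (SD, n = 3). The difference was 1.68-fold with a 95% interval from 1.18 to 2.40 (log2 fold change 0.75 ± 0.22 SE), the unadjusted p was 0.00992 and the adjusted p 0.976 in edgeR, rank 107 of the 20489 genes by p. An exact permutation test (two-sided) again gave p = 0.1. With any 1 library left out the log2 fold change stayed between 0.56 and 0.86, and the adjusted p over all alternatives lay between 0.162 and 1.00.

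Egln1 (ENSMUSG00000031987, chromosome 8, 125635326 to 125676063, minus strand), the main oxygen sensor, stood at 199, 247 and 105 CPM in the controls and at 137, 140 and 185 CPM in shYthdf2. The control libraries held both its highest and its lowest value, a 2.35-fold range, so that every shYthdf2 library lay within the controls. The log2 fold change was -0.25 ± 0.33 (SE; adjusted p = 0.976 in edgeR) and turned to 0.020 without shNC 2. Without shNC 3 it was -0.53 (unadjusted p = 0.0300, adjusted p = 0.201 in edgeR), in a fit where 19.6% of all genes had an unadjusted p under 0.05. Egln2 (ENSMUSG00000058709, chromosome 7, 26858083 to 26866227, minus strand), which encodes PHD1, stood at 75.3, 68.7 and 70.6 CPM in the controls and at 83.6, 81.5 and 67.8 CPM in shYthdf2. It was the steadiest of the 10 genes, with a range of 1.23-fold over the 6 libraries, and its log2 fold change was 0.12 ± 0.17 (SE; adjusted p = 0.976 in edgeR, 95% interval for the fold from 0.821 to 1.43).

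Per length, Egln1 was the most abundant hydroxylase transcript in every library, Egln2 the next and Egln3 the lowest. Egln3 took 9.85%, 8.62% and 11.5% of the summed FPKM of the 3 hydroxylases in shNC and 14.9%, 15.6% and 18.7% in shYthdf2. The ratio of Egln3 to Egln1 FPKM was 0.162, 0.128 and 0.241 in shNC and 0.312, 0.323 and 0.338 in shYthdf2. Both quantities lay higher in every shYthdf2 library than in any control; they were chosen after the values were seen and are given without a test.

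The HIF targets, Adm, Vegfa, Bnip3 and Ndrg1, all had their lowest CPM in a control, shNC 3, and Adm was higher in shYthdf2 1 and 2 alone. Adm (ENSMUSG00000030790, chromosome 7, 110226868 to 110229027, plus strand) encodes adrenomedullin, a peptide that widens blood vessels. It stood at 6.01, 5.61 and 5.28 CPM in the controls and at 12.3, 11.4 and 5.92 CPM in shYthdf2. The value of shYthdf2 3 lay within the controls, so the groups overlapped. The difference was 1.75-fold with a 95% interval from 1.05 to 2.93 (log2 fold change 0.81 ± 0.32 SE, unadjusted p = 0.0356, adjusted p = 0.976 in edgeR; exact permutation p = 0.2). Without shYthdf2 3 the log2 fold change was 1.08, and without shYthdf2 1 it was 0.63. The unadjusted p was 0.00312 without shYthdf2 3, and between 0.0635 and 0.131 with any other library left out, in edgeR. With shYthdf2 1 and 2 summed it was 0.115, and with the replicate block 0.0524, in edgeR. Summed platelet markers were high in the same libraries (214 and 221 CPM in shYthdf2 1 and 2, 42.8 to 69.6 CPM in the other 4), and so were summed neutrophil markers (573 and 567 CPM, against 145 to 437 CPM), with 2 of 11 platelet markers and 0 of 11 neutrophil markers at 0 in some library. Their part in the Adm values was not tested.

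Vegfa (ENSMUSG00000023951, chromosome 17, 46327919 to 46343295, minus strand), the main growth factor of new blood vessels, stood at 366, 341 and 131 CPM in the controls and at 190, 194 and 150 CPM in shYthdf2. It was high in shNC 1 and 2, and shNC 3 was the lowest of all. The control mean was 279 ± 129 CPM (SD, n = 3) and the shYthdf2 mean 178 ± 24.3 CPM (SD, n = 3), with a fold of 0.637 and a 95% interval from 0.342 to 1.19 (log2 fold change -0.65 ± 0.38 SE, adjusted p = 0.976 in edgeR; exact permutation p = 0.4). Without shNC 3 the log2 fold change was -0.99 and the adjusted p 0.0557, the lowest of any member under any alternative (range for Vegfa 0.0557 to 1.00). The summed level of 12 cardiomyocyte markers was also lowest in shNC 3, at 45903, 63691 and 26438 CPM in the controls and at 32897, 31661 and 36881 CPM in shYthdf2. Per 1000 CPM of these markers Vegfa took 7.98, 5.36 and 4.94 CPM among the controls, against 5.76, 6.13 and 4.07 for the shYthdf2 libraries, a ratio that was chosen after the values were seen. Here shYthdf2 3 and not shNC 3 was lowest, and the groups overlapped. The part of cardiomyocyte markers in the Vegfa values was not tested.

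Bnip3 (ENSMUSG00000078566, chromosome 7, 138492565 to 138511248, minus strand), a mitochondrial protein of mitophagy and cell death whose promoter held the most cores of those printed, varied most of the 10 genes. It stood at 146, 213 and 36.9 CPM in the controls and at 140, 136 and 68.8 CPM in shYthdf2. The 5.78-fold range lay within the controls, and the third library was low in each group. The log2 fold change was -0.20 ± 0.59 (SE; adjusted p = 0.984 in edgeR), with a 95% interval for the fold from 0.336 to 2.26, and it turned to 0.33 without shNC 2 and 0.068 without shYthdf2 3. It was -0.64 without shNC 3. Ndrg1 (ENSMUSG00000005125, chromosome 15, 66801167 to 66841489, minus strand), a stress-responsive gene of the NDRG family, stood at 86.7, 85.7 and 55.0 CPM in the controls and at 71.5, 73.7 and 60.0 CPM in shYthdf2. As for Bnip3, shNC 1 and 2 were the highest and shNC 3 and shYthdf2 3 the lowest, in a narrower range of 1.58-fold, and its log2 fold change was -0.15 ± 0.23 (SE; adjusted p = 0.976 in edgeR).

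**Figure D4:**
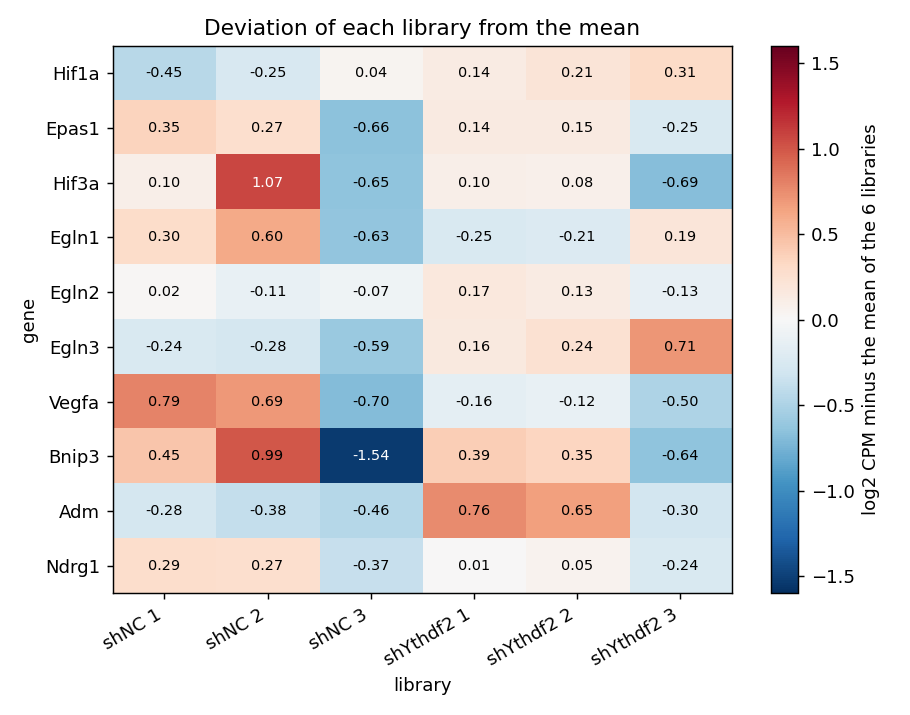
Log2 CPM of each gene (rows) in each library (columns) minus the mean of the 6 libraries, in red above and blue below the mean. Values in shNC 3 are below the mean for 9 of the 10 genes, with Bnip3 at -1.54 and Hif1a, at 0.043, the exception.

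**Figure D5:**
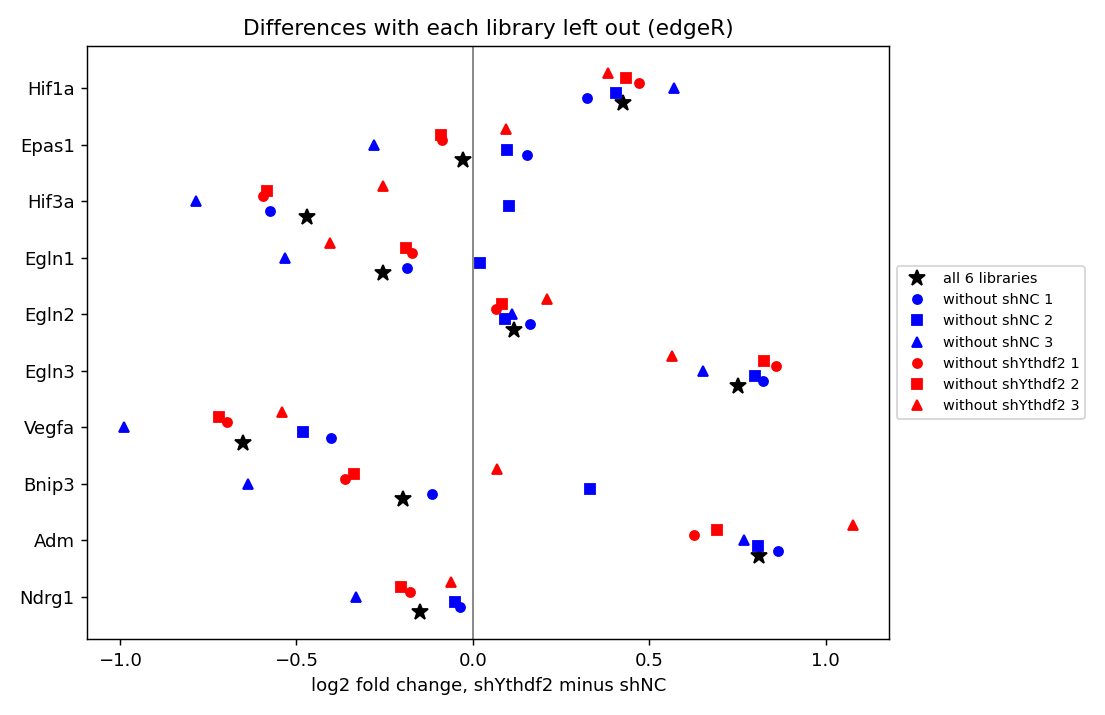
Log2 fold change, shYthdf2 minus shNC (x axis), of each gene with all 6 libraries (star) and with 1 library left out (blue, a control; red, an shYthdf2 library). Hif1a, Egln2, Egln3 and Adm stay above 0 and Vegfa and Ndrg1 below it, while Epas1, Hif3a, Egln1 and Bnip3 cross 0.

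By mean FPKM over the 6 libraries the order was Epas1 (65.4), Bnip3 (47.7), Vegfa (47.0), Egln1 (41.5), Egln2 (24.0), Hif1a (14.7), Egln3 (9.96), Ndrg1 (9.75), Adm (4.31) and Hif3a (0.484). The ranges over libraries of neighbours overlapped among the first 4 and among Hif1a, Egln3 and Ndrg1. Bnip3 exceeded Vegfa in 3 of 6 libraries, shNC 2 and shYthdf2 1 and 2, so this pair did not differ beyond its spread. Egln3 also exceeded Ndrg1 in 3 of 6, and these were the 3 shYthdf2 libraries, while it was below Ndrg1 in the 3 controls. The order of that pair thus followed the groups, which was seen after the fact and was not tested. Epas1 exceeded Bnip3 and Vegfa exceeded Egln1 in 5 of 6, and Hif1a exceeded Egln3 in 6 of 6. The steps from Egln1 to Egln2, from Egln2 to Hif1a, from Ndrg1 to Adm and from Adm to Hif3a held without overlap.

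In the wider pathway no member of a list passed the adjusted threshold. Of 18 genes for HIF partners and the hydroxylase and VHL machinery, 0 passed and 1 had an unadjusted p under 0.05 (median log2 fold change -0.049). The same gene was the one whose groups did not overlap. Over all tested genes 3.65% had such a p and 9.51% did not overlap, so that 1 of 18 does not set the list apart. That gene was Arnt, the partner of every alpha subunit, at 16.1, 16.2 and 9.17 CPM in the controls and at 34.1, 19.5 and 22.6 CPM in shYthdf2. The log2 fold change was 0.88 ± 0.31 (SE; adjusted p = 0.976 in edgeR), and 0.65 without shNC 3. Elob, a subunit of the VHL ligase, had a log2 fold change of -0.42 ± 0.21 (SE), Vhl itself 0.30 ± 0.22 (SE) and Hif1an, the asparaginyl hydroxylase FIH, 0.28 ± 0.22 (SE), each at an adjusted p of 0.976 in edgeR.

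HIF targets of glucose uptake and glycolysis had a median log2 fold change of 0.26, with 13 of 19 tested rows above 0 (Aldoa has 2 rows). Over all tested genes 9967 of 20489 lay above 0. In the list 0 passed the adjusted threshold and 0 had an unadjusted p under 0.05, beside 3.65% of all tested genes. Slc2a1, the glucose transporter GLUT1, stood at 16.9, 22.0 and 47.7 CPM in the controls and at 51.2, 48.8 and 47.9 CPM in shYthdf2. It was the 1 row of the list whose groups did not overlap, beside 9.51% of all tested genes, and shNC 3 was close to the shYthdf2 libraries. Slc16a3, the lactate exporter MCT4, stood at 11.7, 14.8 and 39.1 CPM in the controls and at 40.2, 39.7 and 32.9 CPM in shYthdf2. The same library thus stood with the shYthdf2 group for both transporters. Without shNC 3, Slc2a1 (log2 fold change 1.35, from 0.77 with all libraries) and Slc16a3 (1.51, from 0.78) each passed at an adjusted p of 0.0380 in edgeR, in a fit that called 0.993% of all genes, and the median of the list was 0.42. Without shYthdf2 3 that median was -0.0044 and 0 passed. Pfkp, a phosphofructokinase of glycolysis, and the enolase Eno1 had log2 fold changes of 0.51 ± 0.29 (SE) and 0.48 ± 0.29 (SE) with all 6 libraries.

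In the list of stress, mitochondrial and matrix targets 20 of 33 tested genes lay above 0 (median 0.071), beside 9967 of all 20489. In the list 0 passed and 1 had an unadjusted p under 0.05, beside 3.65% of all tested genes. Hmox1, which encodes the heme-degrading enzyme heme oxygenase 1, stood at 38.4, 23.4 and 75.5 CPM in the controls and at 128, 124 and 73.6 CPM in shYthdf2. Like Adm it was highest in shYthdf2 1 and 2, with shYthdf2 3 within the controls (log2 fold change 1.25 ± 0.44 SE, adjusted p = 0.976 in edgeR). Edn1, the vasoconstrictor endothelin 1, stood at 9.71, 8.90 and 13.1 CPM in the controls and at 26.6, 26.8 and 8.53 CPM in shYthdf2. Plin2, a coat protein of lipid droplets, had 95.2, 101 and 105 CPM against 195, 192 and 89.8 CPM, also high in shYthdf2 1 and 2 alone. Without shYthdf2 3 the log2 fold changes were 1.47 for Hmox1, 1.34 for Edn1 (0.97 with all libraries) and 0.95 for Plin2 (0.66 with all), with adjusted p of 1.00, 0.752 and 0.887 in edgeR. That fit keeps shYthdf2 1 and 2, the pair of libraries most alike. In the same order the log2 fold changes were 1.12, 0.75 and 0.49 without shYthdf2 1, and 1.14, 0.74 and 0.50 without shYthdf2 2. Nos2, the inducible nitric oxide synthase, had a log2 fold change of 0.61 ± 0.29 (SE).

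Of 18 tested ligands and receptors of VEGF and adrenomedullin signalling, 5 lay above and 13 below 0 (median -0.11). Over all tested genes 9967 lay above and 10522 below 0. In the list 0 passed and 1 had an unadjusted p under 0.05, beside 3.65% of all tested genes. Pgf, placental growth factor, a ligand of the VEGF receptor FLT1, stood at 17.3, 22.1 and 32.4 CPM in the controls and at 75.5, 75.1 and 21.8 CPM in shYthdf2. Angpt2, a ligand of the endothelial receptor TIE2, stood at 7.98, 6.08 and 14.6 CPM in the controls and at 26.9, 26.0 and 9.13 CPM in shYthdf2. Both were high in shYthdf2 1 and 2, with shYthdf2 3 within the controls, as Adm was. Without shYthdf2 3 the log2 fold changes were 1.66 for Pgf (1.26 with all libraries) and 1.47 for Angpt2 (1.11 with all), with adjusted p of 0.710 and 1.00 in edgeR. They were 1.02 and 0.88 without shYthdf2 1, and 1.03 and 0.92 without shYthdf2 2. Ramp1, a co-receptor of the calcitonin receptor-like receptor, had a log2 fold change of -0.75 ± 0.33 (SE), and the VEGF co-receptor Nrp2 0.51 ± 0.29 (SE), each at an adjusted p of 0.976 in edgeR. Of the 6 NDRG and BNIP relatives 0 passed and 0 had an unadjusted p under 0.05 (median -0.070). Ndrg4 (log2 fold change 0.87 ± 0.55 SE), Bnip1 (-0.17 ± 0.18 SE), Bnip2 (0.17 ± 0.20 SE) and Ndrg2 (-0.25 ± 0.36 SE) had the smallest p of that list.

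Markers of other cells also differed between libraries. Macrophage and monocyte markers summed to 469, 447 and 1162 CPM in the controls and to 763, 787 and 790 CPM in shYthdf2, with shNC 3 the highest, and 0 of 11 were at 0 in any library. Fibroblast markers were highest in the third library of each group (1490 and 1676 CPM, against 872 to 1013 CPM in the other 4). Erythroid markers were high in shNC 1 and 2 (2104 and 3703 CPM, against 480 to 643 CPM), and 1 of the 8 found was at 0 in some library. Smooth muscle and pericyte markers were lowest in shNC 3 (650 CPM, against 1014 to 1243 CPM). Their part in the values of Hif1a, Egln1, Egln3, Vegfa and Bnip3 was not tested.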

How the data were processed

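Mouse heart RNA was extracted with Trizol and made into 6 TruSeq libraries, per the labels' protocols. The authors deposited raw counts per gene, not scaled to depth, and FPKM, which the authors scaled to length and depth, per the file headers. The submitters' processing notes list Bowtie 0.12.2 and mm8 without saying what each was used for. No source used here gives the counting tool, its use of strand, the annotation or the build of the table's coordinates. The table's rows of 7 members overlap 10 other rows, which held at most 0.617% of the member's counts.

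Counts of the whole table were tested with edgeR 4.0.16 (R 4.3.3), by its two-sided quasi-likelihood F test (TMM scaling, filterByExpr, 20489 genes, Benjamini-Hochberg adjustment, threshold 0.05), without a covariate. Tested genes held 99.9% or more of each library's counts. CPM use the TMM-scaled library size, means carry the SD over 3 libraries, and the SE comes from the F statistic. The exact permutation test used CPM unless FPKM is named. The procedure was run on simulated counts with known changes, as a check that large changes were given in the right direction. The share of small changes that it would find is not given here. Alternatives changed the scaling, the filter, the test (DESeq2 1.42.0, and limma 3.58.1 on log2 FPKM), the block or the libraries. In fits without 1 library the filter was run again.

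The 10 members and the gene lists were chosen with earlier results of these data known, so no list is independent evidence. All members are named, and of each pathway list the 4 genes with the smallest p. Marker lists are given as summed CPM. One gene's result among the stress, mitochondrial and matrix targets is not reported here. Promoter letters come from RefSeq on GRCm38.p6 and were not placed on the table's coordinates.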

Additional observations from a re-analysis of the deposited data

How the results depend on the processing

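None of the 10 genes passed the adjusted threshold under any of the 18 alternatives, where the lowest adjusted p was 0.0557 (Vegfa without shNC 3). Of 180 values of the 10 genes, 164 kept their direction and 16 changed it in 4 genes. Epas1 went from -0.027 to 0.014 with library totals only, to 0.052, 0.053 and 0.051 with limma on FPKM (log2, pseudocount 0.5, 0.1 and 1), and to 0.028 with the replicate block. Bnip3 went from -0.20 to 0.085, 0.089 and 0.081 with the same limma fits and to 0.062 with the replicate block. With 1 library left out Epas1 ran from -0.28 to 0.15, Bnip3 from -0.64 to 0.33, Hif3a from -0.78 to 0.10 and Egln1 from -0.53 to 0.020. The others kept their sign: Hif1a from 0.32 to 0.57, Egln2 from 0.065 to 0.21, Egln3 from 0.56 to 0.86, Vegfa from -0.99 to -0.40, Adm from 0.62 to 1.08 and Ndrg1 from -0.33 to -0.037 over all alternatives. The cause was not tested.

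Genes past the threshold numbered 2 with all libraries, 47 with DESeq2, 1 with library totals only and with each limma fit, 0 with the replicate block and 0 with shYthdf2 1 and 2 summed, and from 0 to 211 with 1 library left out (211 without shNC 3). No pairing of the libraries by replicate number was seen over the tested genes as a whole. Deviations from the group means correlated at -0.013, -0.026 and -0.058 between libraries of the same number. With 3 libraries a group these values cannot exclude a pairing. The block left Egln3 alone of the 10 at an unadjusted p under 0.05 (0.0324 in edgeR). With 3 libraries a group and a common biological coefficient of variation of 48.2%, a missed threshold does not show that a gene was alike in both groups.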
